A study of Mus musculus with 3 samples.

Results

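The T cells described here carried a T cell receptor beta chain (TRB) whose CDR3, the loop that meets the peptide, had 12 or fewer amino acids. They were taken from all cell barcodes with exactly 1 productive TRB contig, by counting the letters of the deposited CDR3 from its first cysteine to its last residue. This gave 1135 of 5915 cells and 529 of 3488 TRB rearrangements, where a rearrangement is 1 V gene, 1 nucleotide CDR3 and 1 J gene within a library. TRBs of 13 to 15 letters served as the comparison, with 4138 cells and 2520 rearrangements, and 642 cells and 439 rearrangements were longer.

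The cells were CD45+ immune cells sorted from perfused sciatic nerves of neuropathic NOD.AireGW/+ mice, which are NOD mice with 1 mutant GW allele of Aire, a gene that the thymus uses to display self proteins to developing T cells. Single-cell TCR sequencing (scTCR-Seq) of 10x Genomics libraries gave 3 replicates of this single condition, of which replicates 1 and 2 were 1 mouse each and replicate 3 pooled 2 mice that cannot be told apart. Every mouse had neuropathy and carried the mutant allele, so short and longer TRBs were compared within libraries and no genotype or disease comparison is possible. Gene expression was not analysed here, so a T cell was recognised by its productive TRB alone and CD4+ cells were not separated from other T cells.

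A TRB gene is assembled in the thymus by joining a V, a D and a J segment. Exonucleases trim the segment ends before joining and the enzyme terminal transferase adds bases that no segment encodes, and these steps set the length and the centre of the CDR3. The V segment encodes the start of the loop, usually beginning with a cysteine, alanine and serine, and the J segment encodes its end, while the centre is the stretch that most often touches the peptide bound to the MHC molecule.

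The sequences below are nucleotide CDR3s, written 5′ to 3′, with the bases between the V and the J match in capitals. The first set gives the TRB with the most cells in replicates 1 and 2, the largest of replicate 3 that could be matched to the reference, and the shortest CDR3 found in replicates 2 and 3.
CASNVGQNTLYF, TRBV19 and TRBJ2-4, 365 cells of replicate 1: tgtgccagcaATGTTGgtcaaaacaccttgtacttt
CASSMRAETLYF, TRBV19 and TRBJ2-3, 13 cells of replicate 2: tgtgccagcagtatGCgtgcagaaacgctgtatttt
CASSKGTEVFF, TRBV19 and TRBJ1-1, 3 cells of replicate 3: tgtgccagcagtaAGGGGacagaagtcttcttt
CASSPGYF, TRBV12-2 and TRBJ2-7, 2 cells of replicate 3: tgtgccagctcCCCCGGTtacttc
CASSWS, TRBV14 and TRBJ2-7, 1 cell of replicate 2: tgtgccagcagttGGTCc

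The second set belongs to a group of 12-letter TRBs in which TRBV19 was joined to TRBJ2-7, isoleucine and arginine stood at letters 5 and 6, and letter 7 varied. It is shown because the same pattern arose through different bases in 2 libraries and 12 of the 13 such rearrangements with an alpha chain had TRAV8D-2.
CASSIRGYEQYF, replicate 1: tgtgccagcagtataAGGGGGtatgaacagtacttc
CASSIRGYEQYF, replicate 2: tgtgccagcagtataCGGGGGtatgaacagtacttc
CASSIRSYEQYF, replicate 1: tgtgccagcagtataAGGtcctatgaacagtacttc
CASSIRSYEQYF, replicate 2: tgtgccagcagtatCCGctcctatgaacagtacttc
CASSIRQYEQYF, replicate 1: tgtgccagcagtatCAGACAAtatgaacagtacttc
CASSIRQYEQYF, replicate 2: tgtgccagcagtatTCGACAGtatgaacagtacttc

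The third set belongs to a group in which TRBV13-2 was joined to TRBJ2-5, found in all 3 libraries. It is shown with the alpha chain (TRA) of the same cells, which joined TRAV21-DV12 to TRAJ57 and in which capitals mark the codon of letter 5.
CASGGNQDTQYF beta, replicate 1: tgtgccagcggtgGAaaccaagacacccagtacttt
its alpha, replicate 1: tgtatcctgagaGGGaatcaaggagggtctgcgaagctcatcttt
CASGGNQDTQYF beta, replicate 2: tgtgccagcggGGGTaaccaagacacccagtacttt
its alpha, replicate 2: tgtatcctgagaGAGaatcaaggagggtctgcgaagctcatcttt
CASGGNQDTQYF beta, replicate 3: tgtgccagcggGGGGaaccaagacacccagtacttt
its alpha, replicate 3: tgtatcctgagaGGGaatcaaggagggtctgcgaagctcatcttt
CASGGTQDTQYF beta, replicate 2: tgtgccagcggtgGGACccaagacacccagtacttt
its alpha, replicate 2: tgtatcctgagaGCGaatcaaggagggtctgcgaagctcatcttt
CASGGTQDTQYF beta, replicate 3: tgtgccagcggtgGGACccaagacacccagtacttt
its alpha, replicate 3: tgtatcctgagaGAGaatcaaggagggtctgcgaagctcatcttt

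Short TRBs made up 28.6% of the cells of replicate 1 (exact Clopper-Pearson 95% interval 26.7 to 30.5, 611 of 2139 cells), 13.5% of replicate 2 (12.3 to 14.7, 423 of 3144) and 16% of replicate 3 (13.2 to 19.1, 101 of 632). Counted as distinct rearrangements the shares were 14.2%, 15.3% and 16.7%, so the libraries lay close together once each rearrangement counted once. The high cell share of replicate 1 rested on 1 rearrangement, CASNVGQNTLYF, without which the share was 13.9%. These shares follow from the rule that chose the cells and are given as a description, with intervals that cover counting error only. The libraries held 34630, 41338 and 5142 UMIs on contigs, and the median UMI count of a short TRB was 8, 6 and 4 against 7, 6 and 4 for TRBs of 13 to 15 letters. Libraries 1 and 2 had 7 cell barcodes in common, libraries 2 and 3 had 3 and libraries 1 and 3 had 0, and none of these barcodes carried the same TRB in both libraries.

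Most short rearrangements sat at the edge of the class. Of the 529, 377 had 12 letters, 121 had 11 and 28 had 10. Single rearrangements had 9, 8 and 6 letters. The 6-letter CASSWS did not end in phenylalanine and had 1 base that matched its J segment, and its 1 cell, which had 6 TRB UMIs, had no alpha chain. The 8-letter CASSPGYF was carried by 2 cells, both without an alpha chain. In replicate 1 the shortest CDR3s had 10 letters, and among these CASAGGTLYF had the most cells, 6 under the name TRBV12-2+TRBV13-2 and a further 2 under TRBV13-2 with the same bases. Of the 83 short junctions under these V names, 9 occurred under both names in 1 library, so a few rearrangements were counted under both.

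**Figure D1:**
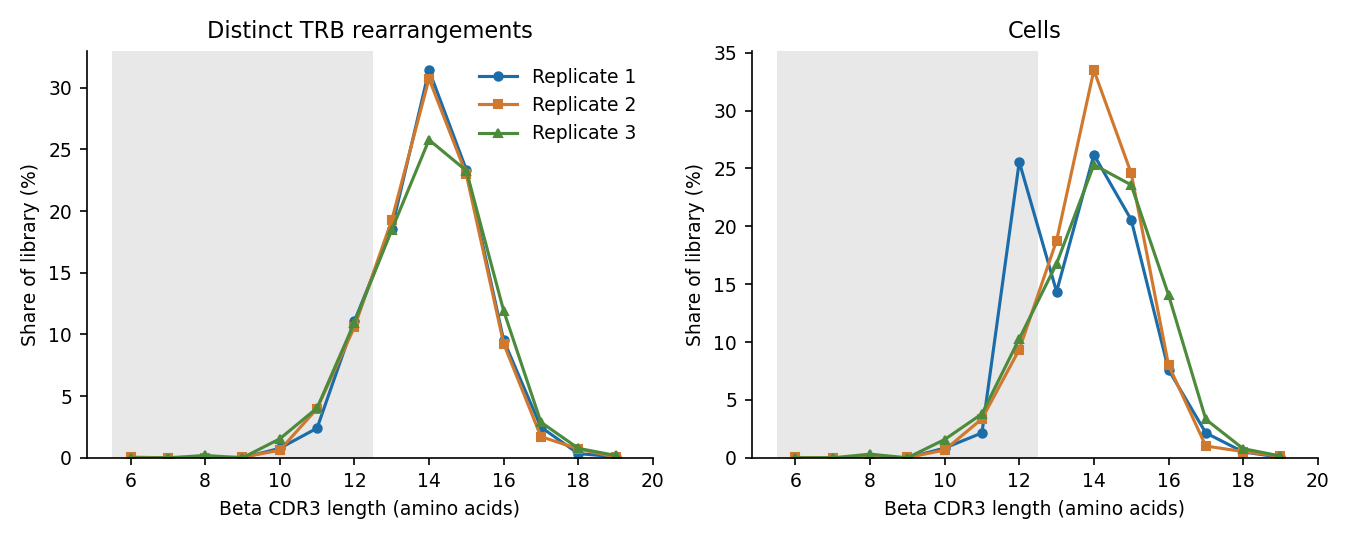
Share of distinct TRB rearrangements (left) and of cells (right) at each beta CDR3 length in amino acids, with a line per replicate and the short class shaded. The 3 libraries overlie at 12 letters among rearrangements (11.1%, 10.6% and 11%), whereas 25.6% of the cells of replicate 1 had 12 letters against 9.35% and 10.3% in replicates 2 and 3.

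On average, short TRBs were built on fewer bases from every source. The junction held 12.8 ± 0.354 bases matching the V segment against 13.9 ± 0.0564 in TRBs of 13 to 15 letters, and 15.8 ± 0.381 bases matching the J segment against 18.3 ± 0.0849 (mean ± SD of the library means, n = 3 libraries). The bases between V and J numbered 6.36 ± 0.507 against 10.01 ± 0.101. Of these, 3.67 ± 0.321 matched a D segment in runs of at least 4 bases against 6.27 ± 0.137, and 2.69 ± 0.195 matched no segment against 3.73 ± 0.237. Each of these values was lower for short TRBs in all 3 libraries. They add up to the length that the rule used, so they describe where the shortness lay. The mean difference was -2.60 D-matched and -2.51 J-matched bases, against -1.15 V-matched and -1.04 unmatched bases. D runs under 4 bases counted as unmatched, so the split between D-matched and unmatched bases depends on that limit. No D match was found in 34.6%, 42.6% and 33.3% of short junctions, against 11.9%, 10.8% and 13.6%.

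Junctions with no unmatched base made up 15.4%, 16.5% and 17.9% of short rearrangements in replicates 1, 2 and 3, against 6.26%, 6.93% and 3.55% of those of 13 to 15 letters. An example is the replicate 3 TRB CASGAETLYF (tgtgccagcggtgcagaaacgctgtatttt), whose 10 letters were matched by TRBV13-2 and TRBJ2-3 alone. D segments were named by Cell Ranger in few short TRBs. TRBD1 was called for 6.02%, 2.90% and 6.90% of short rearrangements against 15.8%, 16% and 14.5% of the others, and TRBD2 for 1.20%, 0% and 1.15% against 6.32%, 7.30% and 6.27%. The 0 of 276 short rearrangements with TRBD2 in replicate 2 allow a share of up to 1.09% by the limit of 3 counts that a count of 0 allows. A D segment of few remaining bases is harder to name, and its part in these shares was not tested.

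**Figure D2:**
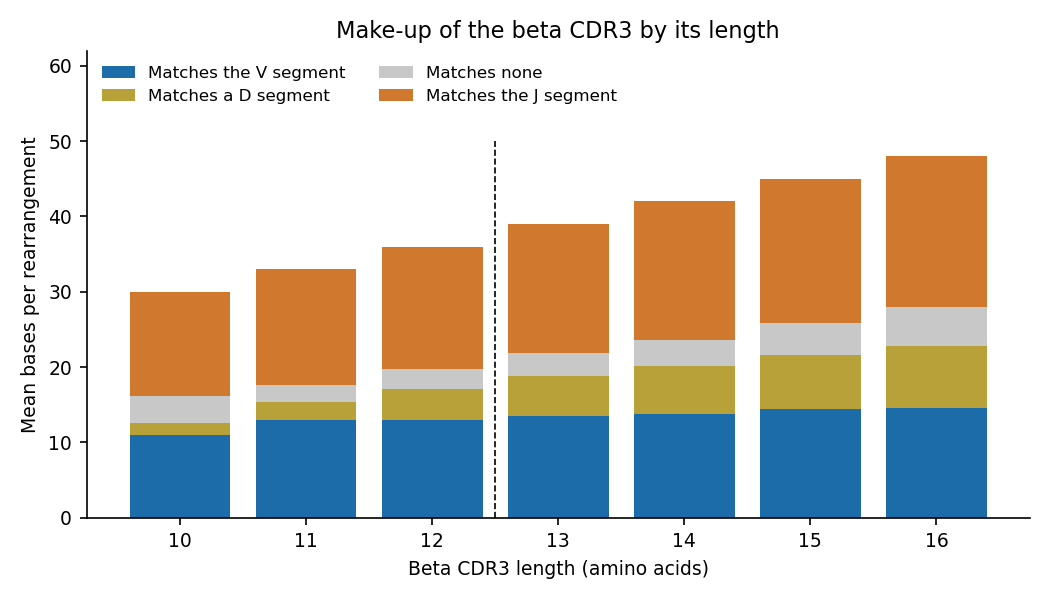
Mean number of CDR3 bases per rearrangement (stacked bars) that matched the V segment, a D segment, no segment or the J segment, by beta CDR3 length in amino acids, over the 3 libraries together. The dashed line marks the limit of the short class. From 15 to 11 letters the D-matched bases fell from 7.21 to 2.41 and the J-matched bases from 19.1 to 15.4, while the V-matched bases went from 14.4 to 13.

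TRBJ2-7 dominated the short TRBs. It is the last J segment of the TRBJ2 cluster (chromosome 6 of GRCm38, 41543810 to 41543856) and encodes 19 CDR3 bases, the fewest of the 12 J segments seen. TRBJ2-7 was used by 79 of 166 short rearrangements of replicate 1 (47.6%), 101 of 276 of replicate 2 (36.6%) and 31 of 87 of replicate 3 (35.6%). Among TRBs of 13 to 15 letters its shares were 18.7%, 18.3% and 17.4%, so every short share lay above every comparison share. The log2 fold change was 1.13 (SE 0.165, adjusted p = 5.51e-06, edgeR quasi-likelihood test with Benjamini-Hochberg adjustment). By single lengths, the share was 51.2%, 31.9% and 36.8% at 12 letters and 29.6%, 27.1% and 25.0% at 13 letters. It fell further within the comparison class, to 17.2%, 17.9% and 17.9% at 14 letters and 12.1%, 11.6% and 10.7% at 15 letters. The change was thus not confined to the limit of the class.

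In all, 4 of the 12 J genes tested passed an adjusted p of 0.05 (33.3% called), of which TRBJ2-7 was higher and 3 were lower in short TRBs. TRBJ1-3, which encodes 22 CDR3 bases, was used by 2, 2 and 1 short rearrangements (1.20%, 0.725% and 1.15%) against 5.04%, 5.10% and 3.70% of the others. Its log2 fold change was -2.33 (SE 0.603, edgeR adjusted p = 0.00451). TRBJ2-1, also with 22 bases, made up 4.82%, 5.80% and 10.3% against 10.4%, 13% and 11.4% (log2 fold change -0.93, SE 0.300, edgeR adjusted p = 0.0196). TRBJ2-3, with 21 bases, made up 3.61%, 3.99% and 8.05% against 9.84%, 8.97% and 8.83% (log2 fold change -1.02, SE 0.344, edgeR adjusted p = 0.0202). For all 3 genes the short share was the lower one in each library, and for TRBJ2-1 and TRBJ2-3 replicate 3 came close to the comparison shares.

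The other J genes most used by short TRBs did not pass. TRBJ1-1, with 20 CDR3 bases, made up 10.8%, 16.7% and 23.0% against 10.5%, 11% and 11.1%, and in replicate 1 its shares nearly met (log2 fold change 0.54, edgeR adjusted p = 0.0604). TRBJ2-5 made up 8.43%, 8.70% and 11.5% against 14.9%, 13% and 14.2% (log2 fold change -0.60, edgeR adjusted p = 0.0604). All its short shares lay below its comparison shares, which also held for TRBJ1-4, another gene without a call. The shares of a class add up to a fixed total, so they are not independent of the TRBJ2-7 share. With TMM factors the log2 fold change of TRBJ2-5 was -0.083 (edgeR adjusted p = 0.893). The 3 J genes called lower encode 21 or 22 CDR3 bases against 19 for TRBJ2-7. Among genes without a call, TRBJ2-4, also with 21 bases, had a log2 fold change of 0.25 (edgeR adjusted p = 0.450). TRBJ1-6, with 25 bases, had -1.02 (edgeR adjusted p = 0.138). The part of segment length in these differences was not tested. Leaving out replicate 1 or replicate 2 left no J gene under 0.05, with a TRBJ2-7 log2 fold change of 1.01 (edgeR adjusted p = 0.221) and 1.20 (0.346). Leaving out replicate 3 left 5, and counting cells in place of rearrangements left 0. With TMM factors the calls were 2 higher and 1 lower, as TRBJ1-1 gained a call (log2 fold change 1.06, edgeR adjusted p = 0.00305) while TRBJ2-1 (-0.41) and TRBJ2-3 (-0.49) lost theirs (0.464 each). Those 2 genes were not called by DESeq2 either (adjusted p = 0.244 each), nor against 13 to 14 letters (edgeR adjusted p = 0.0559 and 0.220).

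**Figure D3:**
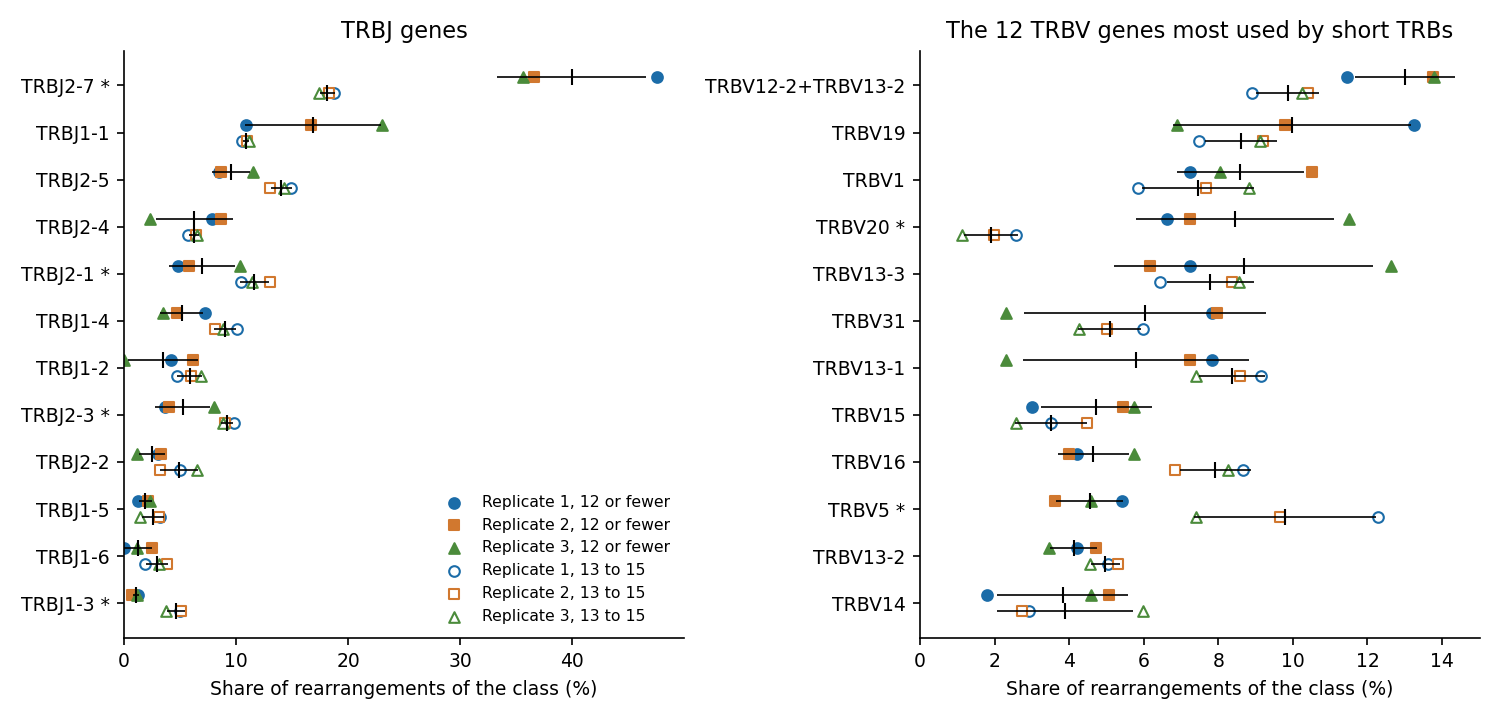
Share of the rearrangements of each length class in percent (horizontal axis) that used each TRBJ gene (left) and each of the 12 TRBV genes most used by short TRBs (right). Filled symbols are TRBs of 12 or fewer letters, open symbols those of 13 to 15, 1 symbol per replicate, with bars for mean ± SD (n = 3 libraries) and a star for an edgeR adjusted p under 0.05. TRBJ2-7, TRBV20 and TRBV12-2+TRBV13-2 have all filled symbols to the right of all open ones, and the last of them has no star.

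Among V genes, TRBV20 was over-represented and TRBV5 under-represented in short TRBs. TRBV20 (chromosome 6, 41188273 to 41188977) encodes 14 CDR3 bases and begins the loop with cysteine, glycine and alanine. It was used by 11, 20 and 10 short rearrangements (6.63%, 7.25% and 11.5%) against 2.58%, 1.98% and 1.14% of the others, and the classes did not overlap. The log2 fold change was 1.9 (SE 0.360, edgeR adjusted p = 0.0335). TRBV5 (41062332 to 41062803) encodes 17 CDR3 bases and was used by 9, 10 and 4 short rearrangements (5.42%, 3.62% and 4.60%) against 12.3%, 9.66% and 7.41%. Its log2 fold change was -1.21 (SE 0.212, edgeR adjusted p = 0.0335). These were the 2 genes called of 21 tested (9.52% called). Lack of overlap was not limited to called genes. The short shares of TRBV12-2+TRBV13-2 all lay above its comparison shares, and those of TRBV16 and TRBV29 all lay below, with no call.

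The V genes that short TRBs used most were TRBV12-2+TRBV13-2, TRBV19 and TRBV1, and none of them passed the test. TRBV12-2+TRBV13-2, a name that the deposited contigs give to TRBV13-2 sequences, made up 11.4%, 13.8% and 13.8% against 8.90%, 10.4% and 10.3% (log2 fold change 0.39, edgeR adjusted p = 0.262). Under the plain name TRBV13-2 the direction was the opposite in all 3 libraries, with 4.22%, 4.71% and 3.45% against 5.04%, 5.32% and 4.56% (-0.23, edgeR adjusted p = 0.658). TRBV19 made up 13.3%, 9.78% and 6.90% against 7.49%, 9.20% and 9.12%, with replicate 3 in the opposite direction (0.27, edgeR adjusted p = 0.597). TRBV1 made up 7.23%, 10.5% and 8.05% against 5.85%, 7.68% and 8.83% (0.32, edgeR adjusted p = 0.439). TRBV5 lost its call without replicate 1 (log2 fold change -1.20, edgeR adjusted p = 0.241) and without replicate 2 (-1.03, 0.371). TRBV20 lost its call when TRBJ2-7 rearrangements were left out, with a log2 fold change of 1.66 (edgeR adjusted p = 0.302).

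The most frequent short combinations of V and J were TRBV12-2+TRBV13-2 with TRBJ2-7 and TRBV19 with TRBJ2-7, at 27 rearrangements each. TRBV1 with TRBJ2-7 followed with 20, TRBV13-3 with TRBJ2-7 with 19 and TRBV20 with TRBJ2-7 with 18. Short CDR3s started with CASS in 49.4%, 48.6% and 49.4% of rearrangements, against 66.6%, 64.3% and 65.0% of those of 13 to 15 letters. They ended with the TRBJ2-7 residues EQYF in 45.2%, 34.4% and 34.5%, against 18.6%, 18.3% and 17.4%.

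The middle of the short loop held less glycine and tryptophan and more tyrosine, glutamine, leucine, isoleucine, methionine and acidic residues. At the 3 central letters, glycine made up 24.1%, 19.7% and 23.4% of letters in replicates 1, 2 and 3, against 34.1%, 34.1% and 35.9% in TRBs of 13 to 15 letters. No short share reached a comparison share (log2 fold change -0.65, SE 0.112, edgeR adjusted p = 8.81e-06). At least 1 glycine stood among these letters in 56.9% ± 4.40 of short rearrangements and in 73.4% ± 0.712 of the others (SD, n = 3 libraries). Tryptophan, the largest residue, made up 1.61%, 1.09% and 2.30% against 3.94%, 3.70% and 3.23% (log2 fold change -1.34, SE 0.278, edgeR adjusted p = 0.0001).

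Tyrosine, an aromatic residue that TRBJ2-7 encodes near its start, made up 2.61%, 5.07% and 4.60% against 1.25%, 1.77% and 1.33% (log2 fold change 1.44, SE 0.240, edgeR adjusted p = 8.81e-06). Without TRBJ2-7 rearrangements its log2 fold change was 0.46 (edgeR adjusted p = 0.390). Glutamine made up 9.24%, 11.5% and 5.75% against 4.8%, 4.94% and 5.98%, so the direction was not shared by replicate 3 (0.92, SE 0.160, edgeR adjusted p = 8.81e-06). Among the acidic residues, aspartate made up 11.6%, 10.1% and 13% against 7.53%, 7.33% and 6.55% (0.63, SE 0.148, edgeR adjusted p = 0.000432). Glutamate made up 3.82%, 3.14% and 3.45% against 1.8%, 1.67% and 1.99% (0.95, SE 0.247, edgeR adjusted p = 0.00112). Leucine (0.90, edgeR adjusted p = 0.0001), isoleucine (1.25, 0.000496) and methionine (1.54, 0.0187), which have aliphatic or sulfur-bearing side chains, were higher in all 3 libraries. Methionine rested on few letters, with 3, 7 and 1 in short TRBs against 8, 10 and 0. Isoleucine had 11, 23 and 4 letters against 36, 36 and 5. Of its short letters, 7 in replicate 1 and 7 in replicate 2 came from the TRBV19 and TRBJ2-7 pattern with isoleucine at letter 5. Without TRBJ2-7 rearrangements, isoleucine (0.71, edgeR adjusted p = 0.275) and methionine (1.61, 0.109) were not called, while leucine was (0.84, 0.0234).

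In total 9 of 19 residues passed (47.4% called), 7 of them higher and 2 lower in short TRBs. The shares of serine, valine and proline did not overlap between the classes either, and these residues were not called. The 3 letters of 1 rearrangement are not independent counts. The window also took in different sources: V-matched bases supplied 19.4%, 16.8% and 15.6% of the central bases of short TRBs against 2.40%, 2.18% and 2.14%, and bases between V and J supplied 61.7%, 55.2% and 61.1% against 78.9%, 78.3% and 79.3%. The part of this shift in the residue differences was not tested. Isoleucine and methionine lost their calls without replicate 2 (log2 fold change 0.85, edgeR adjusted p = 0.140, and 1.29, 0.264) and without replicate 3 (1.21, 0.0776, and 1.43, 0.0850).

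The mean Kyte-Doolittle hydrophobicity of the 3 letters, on which lower values are more polar, was -1.18 ± 0.0218 in short TRBs and -1.08 ± 0.0392 in the others (SD, n = 3 libraries). The difference of -0.106 ± 0.0308 had the same sign in the 3 libraries (exact sign-flip permutation, two-sided, p = 0.25, the smallest that 3 libraries allow, so that no single value tested this way can pass 0.05). Net charge over the whole CDR3 was -0.840 ± 0.0795 against -0.850 ± 0.0333, a difference of 0.00927 ± 0.0648 that was within the spread between libraries. Against TRBs of 13 to 14 letters the hydrophobicity difference was -0.0248 and replicate 2 went the other way (-1.20 against -1.22), and counting cells in place of rearrangements turned the mean to 0.112.

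**Figure D4:**
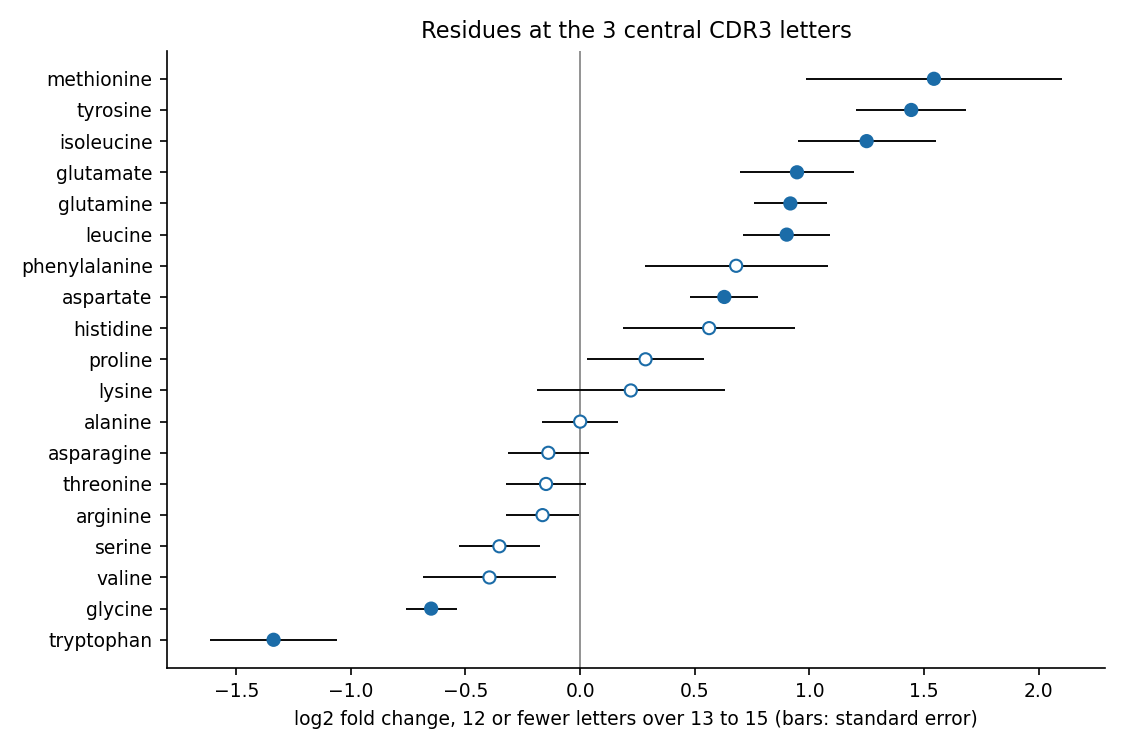
log2 fold change of each amino acid at the 3 central CDR3 letters, 12 or fewer letters over 13 to 15, with bars for the standard error of the edgeR fit over 3 libraries. Filled points have an adjusted p under 0.05. Methionine and tyrosine lie farthest to the right (1.54 and 1.44) and tryptophan farthest to the left (-1.34). Methionine rested on 11 short letters in all.

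The alpha chains paired with short beta chains were close in length to those of the comparison. Over distinct pairs of cells with exactly 1 TRA, the alpha CDR3 averaged 13.6, 13.7 and 13.7 letters with short TRBs and 13.5, 13.6 and 13.6 with TRBs of 13 to 15 letters. The difference was 0.0928 ± 0.00538 letters, with the same sign in 3 of 3 libraries (exact sign-flip permutation p = 0.25), and it turned to -0.126 when short was taken as 11 or fewer letters. Cells without a productive TRA made up 25.7%, 26.7% and 32.7% of short cells against 15%, 22.8% and 39.8%. The mean difference of 2.52 percentage points was smaller than its SD of 8.98 over the libraries, and replicate 3 went the other way. Without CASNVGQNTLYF, which held 115 of the 157 short cells without alpha in replicate 1, the share there was 17.1% and the mean difference turned to -0.353. It was -1.57 without replicate 1 and 7.32 without replicate 3.

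None of 52 partner TRAV genes (0% called) and none of 40 partner TRAJ genes (0% called) passed an adjusted p of 0.05 in edgeR. With no adjustment, 4 TRAV and 4 TRAJ genes had p under 0.05, against 1 and 3 in DESeq2, which also called 0 of each. The partner segment with the lowest adjusted p was TRAJ12, which occurred in 0, 1 and 0 pairs with short TRBs against 17, 32 and 5 pairs (edgeR adjusted p = 0.0560). MAIT type alphas, which join TRAV1 to TRAJ33, were found in 0 of 778 short cells with 1 TRA, which by the same limit of 3 counts allows a share of up to 0.386%, and in 9 of 2974 cells of the comparison. iNKT type alphas, TRAV11 or TRAV11D with TRAJ18, were found in 1 and 2 of these cells.

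Near-identical beta chains recurred among the short rearrangements. With TRBV12-2+TRBV13-2 counted as TRBV13-2, the short class held 520 rearrangements. Of these, 122 (23.5%) had a relative with the same V, the same J and at most 1 different letter, against 348 of 2480 (14%) in the comparison. Groups of at least 4 rearrangements held 8.08% and 2.70%. These values were not tested, and longer loops have more letters at which they can differ. The groups named next were chosen after their values were seen. Their pairs count every productive TRA of a cell, also where a cell had several, whereas the partner tests used cells with exactly 1 TRA.

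The largest group joined TRBV19 (chromosome 6, 41178375 to 41179048) to TRBJ2-7. It held 16 rearrangements in 19 cells, 7 rearrangements in replicate 1 and 9 in replicate 2, and 15 of them had an alpha chain. TRAV8D-2 (chromosome 14, 53042428 to 53042891) occurred in 13 of those 15. Of its members, 14 had isoleucine and arginine at letters 5 and 6, 8 different residues at letter 7 and the TRBJ2-7 end YEQYF, split as 7 and 7 between the libraries and 0 in replicate 3. The alpha chains all began with CATD over 14 TRAV8D-2 pairs, but used 9 different TRAJ genes and ranged from 11 to 16 letters. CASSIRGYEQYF was paired with a TRAV8D-2 alpha of TRAJ40 in replicate 1 and of TRAJ48 and TRAJ56 in replicate 2, where a further rearrangement of it carried a TRAV5-4 alpha. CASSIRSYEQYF was paired with one of TRAJ56 in replicate 1 and of TRAJ49, with the CDR3 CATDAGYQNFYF, in replicate 2.

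TRAV8D-2 occurred with TRBV19 and TRBJ2-7 in 15 distinct pairs with short TRBs, of 30 short pairs of that V and J, and in 0 of 50 pairs with TRBs of 13 to 15 letters. TRAV8D-2 itself was not rare there, with 59 of 2179 pairs in the comparison and 24 of 469 in the short class. In the partner test, which used only cells with exactly 1 TRA, TRAV8D-2 had 22 short and 52 comparison pairs. The log2 fold change was 0.99 (SE 0.433, edgeR adjusted p = 0.577). The mouse TRAV8 genes have near-identical copies, so the copy named may be uncertain.

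The next group joined TRBV13-2 (chromosome 6, 41121396 to 41121832) to TRBJ2-5 (41543453 to 41543501), with the CDR3s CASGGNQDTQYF, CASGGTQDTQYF, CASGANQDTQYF and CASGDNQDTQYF. It held 13 rearrangements in 15 cells, with 1, 9 and 3 rearrangements in replicates 1, 2 and 3. Of the 12 with an alpha chain, 11 had TRAV21-DV12 (chromosome 14, 53875984 to 53876752) joined to TRAJ57 (54158505 to 54158569). All 11 alphas had 15 letters and were alike but for letter 5. There, glycine occurred 5 times, glutamate 3 times, and alanine, proline and threonine 1 time each. The 11 pairs were built from 10 different beta and 7 different alpha nucleotide CDR3s, and the exception was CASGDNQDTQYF, whose 3 cells with an alpha carried TRAV12D-2 and TRAJ23.

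Among cells with exactly 1 TRB of any length, 469 of 3031 pairs had a short TRB. In 20 of these pairs TRAV21-DV12 was joined to TRAJ57. Of the 20, 16 had a short TRB, 3 had a TRB of 13 to 15 letters and 1 a longer one. The 16 include the 11 pairs of the group above. A 12-letter TRB of other genes, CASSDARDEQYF (TRBV13-3 and TRBJ2-7), was paired with an alpha of the same genes in replicates 1 and 3, through different beta bases. TRAV21-DV12 as a partner made up 6.77%, 5.47% and 6.67% of short pairs against 3.20%, 2.64% and 2.82% (log2 fold change 1.08, SE 0.419, edgeR adjusted p = 0.577). TRAJ57 made up 5.26%, 5.47% and 8.33% against 2.62%, 2.54% and 0.469% (log2 fold change 1.36, SE 0.458, edgeR adjusted p = 0.0782). Neither passed the test across all partner genes. The TRB contigs of the TRBV13-2 group had 2 to 16 UMIs with a median of 5, and those of the TRBV19 pattern had 1 to 22 with a median of 6.

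Sharing between libraries depended on the contigs and lengths counted. Counted by amino acid sequence together with the V and J names, 4.82%, 6.16% and 4.60% of short rearrangements had a counterpart in another library, against 3.63%, 2.13% and 1.71%. The difference of 2.70 ± 1.43 percentage points had the same sign in 3 of 3 libraries (exact sign-flip permutation p = 0.25), and it turned to -1.20 when short was taken as 11 or fewer letters. With contigs of at least 3 UMIs it was 0.672, and replicate 1 had 2.60% against 3.30%, so the sign was no longer shared. With V names as deposited, the shared short TRB with the most cells was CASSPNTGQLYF (TRBV10 and TRBJ2-2), with 2 cells in replicate 2 and 5 in replicate 3. Its nucleotide CDR3 was the same in both, while its alpha was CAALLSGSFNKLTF (TRAV14D-1 and TRAJ4) in replicate 2 and a TRAV12-3 and TRAJ39 chain in replicate 3. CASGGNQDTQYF with TRBJ2-5 was split, with 4 cells under TRBV12-2+TRBV13-2 and 3 under TRBV13-2. Over both names it had as many cells as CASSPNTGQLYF and occurred in all 3 libraries.

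Short TRBs of many cells were few, as were those of the comparison. Rearrangements seen in at least 2 cells made up 18.1%, 20.3% and 11.5% of short TRBs against 20.5%, 20.9% and 12.3% of the others. The difference of -1.27 ± 1.00 percentage points had the same sign in all 3 libraries (exact sign-flip permutation p = 0.25), and was -0.69 without replicate 1. For at least 6 cells it was -0.362, with replicate 1 the other way (3.61% against 2.69%), and without TRBJ2-7 rearrangements it turned to 0.381. In replicate 1, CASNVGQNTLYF held 365 cells, which were 59.7% of its short cells and 17.1% of the library (15.5 to 18.7). The next largest were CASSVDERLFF (TRBV13-1 and TRBJ1-4) with 18 cells and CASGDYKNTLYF (TRBV12-2+TRBV13-2 and TRBJ1-3) with 14. Of the 250 cells with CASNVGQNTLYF and 1 TRA, 249 had the same alpha, and 115 cells had none.

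In replicate 2 the largest short TRB was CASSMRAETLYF with 13 cells, all 10 with 1 TRA carrying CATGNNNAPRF (TRAV8D-1 and TRAJ43). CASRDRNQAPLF (TRBV14 and TRBJ1-5), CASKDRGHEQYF (TRBV19 and TRBJ2-7) and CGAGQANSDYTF (TRBV20 and TRBJ1-2) followed with 10 cells each, and all 10 cells of the last had no alpha chain. In replicate 3 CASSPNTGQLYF held 5 cells, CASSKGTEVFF 3, and no other short TRB held more than 2. Short rearrangements of over 20 cells numbered 1, 0 and 0 in the 3 libraries, against 3, 8 and 0 in the larger comparison class. As shares these were 0.602%, 0% and 0% against 0.351%, 0.608% and 0%, so replicates 1 and 2 went in opposite directions. The short counts of 0 in replicates 2 and 3 allow shares of up to 1.09% and 3.45%.

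**Figure D5:**
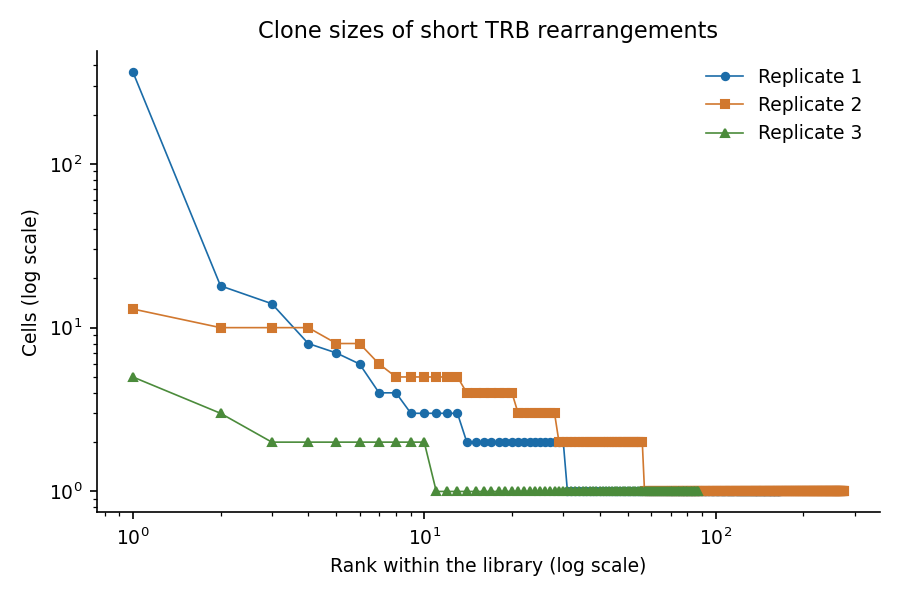
Cells per short TRB rearrangement (vertical axis, log scale) against its rank within the library (horizontal axis, log scale), with a line per replicate. The first rank of replicate 1 lies at 365 cells, against 13 and 5 in replicates 2 and 3, and all other short TRBs lie at 18 cells or below.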

How the data were processed

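Single-cell V(D)J libraries of 3 sciatic nerve samples were processed by the authors, whose processing notes name Cell Ranger, Seurat and mm10. The Cell Ranger version is not given in the sources used here. The deposited contig tables give counts of UMIs and reads, gene names and the CDR3 of each contig. Clonotype and consensus files were not used. Cells with exactly 1 productive TRB in the filtered tables were kept, multichain cells were thereby left out (114, 217 and 10), and no doublet caller was run.

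Rearrangements were counted per feature in 6 columns (short and 13 to 15 letters, by library) and fitted with edgeR 4.0.16 in R 4.3.3 (glmQLFit and glmQLFTest, library as a block, column totals as library sizes, features with a total of at least 10, Benjamini-Hochberg within each table, threshold 0.05). DESeq2 1.42.0 was an alternative. Other values were compared per library by exact sign-flip permutation. The central letters were the 3 in the middle of the CDR3, the window starting 1 letter early at even lengths. V and J bases were matched from each end to GRCm38 segments of GENCODE M21 and D bases as runs of at least 4. TRBV10 rearrangements (128) were left out of the matching because of a median match of 3 bases, and TRBV12-2+TRBV13-2 was matched to TRBV13-2. Fits were tested on simulated data. Replicates are libraries. Each edgeR p-value rests on counting error and on a variance that the fit partly shares over the features of a table. A small edgeR p-value is thus not a measure of how far the 3 libraries differ for that gene.

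Genes named were those with an adjusted p under 0.05 and 1 direction in all libraries, the 3 most used TRBV and TRBJ genes, the 3 largest short TRBs of each library with ties, the shared short TRB with the most cells and the shortest TRBs. Others named, among them glutamine, TRAJ12, the V and J combinations and the groups of near-identical TRBs, were chosen after their values were seen. The length limit and all lists were chosen with earlier results of these data known. Intervals are exact Clopper-Pearson at 95%, the limit for a count of 0 is 3 counts of the total, and both cover counting error only, since UMIs and cells of 1 clone are not independent.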

Additional observations from a re-analysis of the deposited data

Results flagged for a closer look

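Short TRBs were also present on barcodes that Cell Ranger did not call as cells, which none of the comparisons above used. Of the productive TRB contigs outside cells, 43.5% were short in replicate 1 (exact Clopper-Pearson 95% interval 42.3 to 44.6, 3025 of 6960), 12.3% in replicate 2 (10.6 to 14.1, 174 of 1413) and 15.1% in replicate 3 (12.2 to 18.4, 82 of 542). In replicate 1, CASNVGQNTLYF lay on 2256 such barcodes with a median of 1 UMI, and without it the short share was 16.3%. In replicate 2 the largest short TRB lay on 2 such barcodes and in replicate 3 on 5.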

How the results depend on the processing

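Leaving out 1 library each left 1 to 2 V genes, 0 to 5 J genes and 7 to 9 central residues called. Without the library as a replicate block, 7 J genes and 2 partner TRAJ genes were called, and no paired analysis was possible between conditions because there is 1 condition. DESeq2 called 1 V gene, 2 J genes and 6 residues, and TMM factors gave 1 partner TRAJ gene and 3 J genes. Counting cells in place of rearrangements called 0 V genes, 0 J genes and 0 residues, turned the hydrophobicity difference to 0.112 and gave a charge difference of 0.222 and an alpha length difference of 0.576 letters. With short taken as 11 or fewer letters, 0 V and 2 J genes were called. The base differences were then -3.93 for D, -3.42 for J, -5.15 between V and J and -1.22 unmatched. At that limit the alpha length difference was -0.126 and the sharing difference -1.20, and methionine went to -0.00013 on the log2 scale. Against 13 to 14 letters, 2 J genes were called, and the differences were -2.15 D, -2.10 J, -2.90 between and -0.747 unmatched bases, -0.0248 hydrophobicity and 0.141 alpha letters. With the middle 1 or 2 letters, 3 residues were called and isoleucine turned to -0.75. Contigs of at least 3 UMIs gave 1 TRAJ gene, and differences of -0.141 hydrophobicity, 0.0764 alpha letters and 0.672 percentage points of sharing. Of the alternatives chosen after seeing the data, leaving out TRBJ2-7 called 0 V genes and gave -0.216 hydrophobicity, 0.0580 alpha letters, 1.20 percentage points of sharing and 0.381 points of expanded rearrangements, and leaving out the largest short TRB gave 0.0833 alpha letters. The cause of these changes was not tested. Fold changes that did not pass the test also changed sign: TRBV19 ranged from -0.048 to 0.44 when 1 library was left out, the lowest without replicate 1, and went to -0.67 with 11 or fewer letters, and TRBV1 to -0.36 when cells were counted. Of 394 recomputed results, 288 kept their sign and their side of the threshold, kept their count within 1.5 times or moved by less than the spread between libraries. A further 4, 3 of them differences in cells without alpha, moved by less than that spread and changed sign. The 87 short rearrangements of replicate 3 limit its precision.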
